A study of Mus musculus with 13 samples.

Results

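The comparison described here is between young adult and older adult mice, in brain cells sorted on the surface receptor Pdgfra. Its members are the 7 adult libraries of a series of 13, namely 3 titled P80 and 4 titled P310, chosen by their titles. The study sorted cells with magnetic beads against Pdgfra to enrich oligodendrocyte precursor cells (OPCs), and sequenced their total RNA in bulk at 4 ages. All adult mice were wild-type C57BL/6, with no transgene or treatment named. The age field gives P80, P81 and P81 for the first group and P306, P307, P308 and P308 for the other, as days after birth. Beads that remove myelin debris were used for both adult ages. Libraries were made with a stranded low-input kit for total RNA. The labels number the samples within an age but do not state that each came from a separate animal, so p-values here measure the spread between these samples.

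OPCs are glial progenitors that stay in the adult brain, divide slowly and give rise to the oligodendrocytes that wrap axons in myelin. They are marked by Pdgfra, the receptor for platelet-derived growth factor A, by the proteoglycan Cspg4 (NG2) and by the transcription factors Olig2 and Sox10. With age their differentiation is known to slow. Pdgfra is also expressed by fibroblasts of the brain's vessels and coverings, so a sort on it can hold more than OPCs.

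The P80 libraries held 13565319, 8809017 and 14104843 gene counts and the P310 libraries 8669521, 14420096, 11429221 and 11950230. Mitochondrial genes took 12.8% to 23.5% of counts at P80 and 18.3% to 34.4% at P310. Levels are given as CPM, the usual unit of counts relative to library size, after scaling the libraries to each other by TMM, and changes as the log2 of P310 over P80. Each change carries a standard error (SE) and a 95% interval from a model of all 4 ages. Where a library held no read of a gene, the limit is set at 3 counts, which after scaling are worth 0.190 CPM in P80 replicate 1, the largest adult library by scaled size, and 0.396 CPM in P310 replicate 1, the smallest. These limits and the intervals on counts leave out PCR duplication, as reads were not counted by molecule. In bulk RNA, fewer cells of a type and less RNA per cell cannot be told apart.

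The markers went in part against the label of the sort. Per kilobase of exon, the median of 16 endothelial markers lay between 68.3 and 139 CPM in every adult library, and the median of 20 OPC markers between 1.13 and 2.18 CPM. Medians of astrocyte (9.03 to 17.9), mural (11.0 to 21.9) and microglial (6.12 to 24.3) markers were also above the OPC range in every adult library. So were those of fibroblast, ependymal, erythroid, mature oligodendrocyte and committed precursor markers. Mature neuron and border macrophage medians overlapped the OPC range, and immature neuron medians lay below it. Pdgfra itself stood at 1.37 to 6.86 CPM per kilobase, at the 53.2nd percentile of the genes tested, while the endothelial tight junction gene Cldn5 stood at 245 to 602, at the 99.7th. The libraries are therefore called Pdgfra-sorted cells below and not OPCs. Endothelial cells line blood vessels.

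P310 replicate 2 stood apart from the other 6 libraries. Among 10209 genes averaging 10 CPM or more, 163 were over 4-fold higher in it than in every other adult library and 13 over 4-fold lower. The same count was at most 1 higher and 13 lower in any other library, the latter in P310 replicate 1. Of the 163 genes, 8 were markers of myelin-forming oligodendrocytes, led by Mobp and Mbp, which encode structural proteins of the myelin sheath. Its TMM factor was 0.631 where the other adult libraries had 0.875 to 1.16. Results that rest on this library are given with and without it.

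No gene passed the threshold between P310 and P80. Of the genes that passed a filter on low counts, 21170 in number, each was tested with edgeR's quasi-likelihood test, and 0 (0%) had a Benjamini-Hochberg adjusted p under 0.05. An unadjusted p under 0.05 was found for 1162 genes, or 5.49%, of which 620 (2.93%) had the higher mean at P310 and 542 (2.56%) the lower. Without P310 replicate 2 the test again called 0 of 20996 genes (0%), with 1155 (5.5%) under 0.05 unadjusted, 516 higher (2.46%) and 639 lower (3.04%). A fit of the 7 adult libraries alone, which uses only their own spread, called 0 of 18534, with 585 (3.16%) under 0.05 unadjusted, 270 higher (1.46%) and 315 lower (1.7%). The adult libraries without P310 replicate 2 gave 0 of 18170, with 650 (3.58%) under 0.05 unadjusted, 295 higher (1.62%) and 355 lower (1.95%). DESeq2, a second tool, called 28 genes, 14 higher and 14 lower, and without P310 replicate 2 it called 29, with 15 genes in both sets (53.6% and 51.7% of them).

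Fitted differences were small for most expressed genes. Among 8812 genes with a mean of 10 to 100 CPM the median absolute log2 change was 0.24, and among 1397 genes over 100 CPM it was 0.17. Fitted changes past 2-fold were found for 315 (3.57%) and 76 (5.44%) of these. Without P310 replicate 2 the same numbers were 179 (2.03%) and 26 (1.86%). Of the 76 abundant genes past 2-fold, 65 had the higher mean at P310, and in 64 of these 65 P310 replicate 2 was the highest of the 7 libraries.

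**Figure D1:**
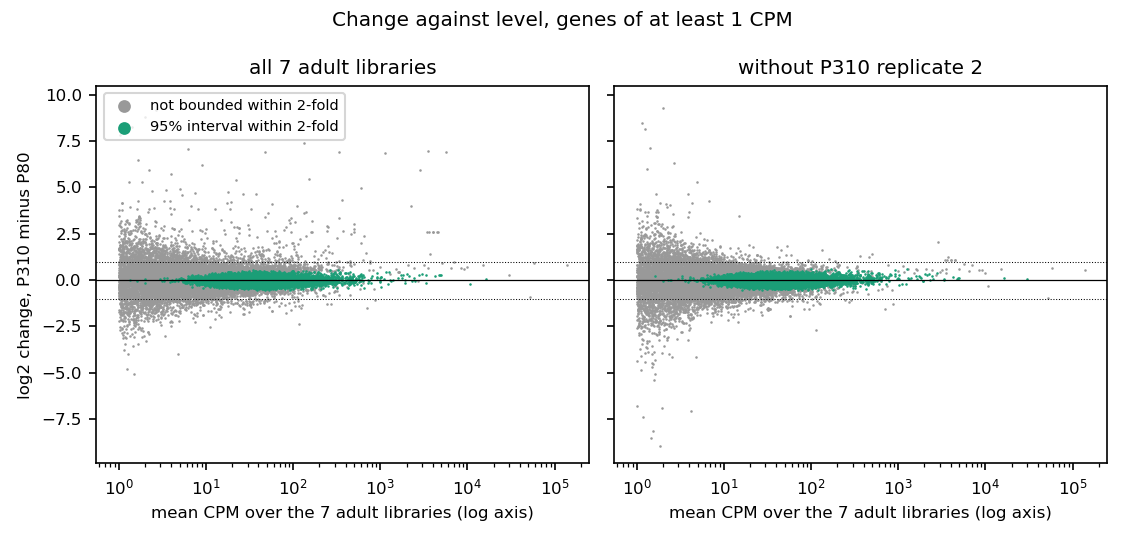
Fitted log2 change from P80 to P310 (vertical axis) against mean CPM on a log axis, 1 point per gene of at least 1 CPM, with all 7 adult libraries (left) and without P310 replicate 2 (right). Green points are genes whose 95% interval lies within 2-fold each way, dotted lines mark 2-fold, and the scatter of abundant genes above the upper line on the left is mostly gone on the right, where 26 in place of 76 genes over 100 CPM are past 2-fold.

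The coding genes of at least 10 CPM with the smallest unadjusted p are given as values, since none of the 12 passed the adjusted threshold. Their adjusted p ran from 0.332 to 0.843 in edgeR, from 0.380 to 0.857 without P310 replicate 2, and was 1.0 for each with the adult libraries alone. DESeq2, run on the same counts, called 10 of the 12, and 9 without P310 replicate 2. The choice of the 12 by smallest p favours this too, so it is not separate evidence. In all, DESeq2 called 28 of 21170 genes, and 29 of 20996 without that library. The groups did not overlap for any of the 12, a property their choice favours. Over all genes tested, every P310 library was above every P80 library for 480 genes (2.27%) and below for 549 (2.59%).

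Per2, a repressor in the core of the circadian clock (GRCm38 chromosome 1, 91415982 to 91459324), had the smallest p. It stood at 67.3, 44.2 and 28.1 CPM in the P80 libraries and at 12.9, 14.4, 13 and 11.6 CPM in the P310 libraries. The P310 values lay close together, all below the lowest P80 library. The mean was 46.6 ± 19.7 CPM (SD, n = 3) at P80 and 13 ± 1.16 (SD, n = 4) at P310, a log2 change of -1.84 (SE 0.29, interval -2.47 to -1.22). Leaving out any 1 adult library gave -2.13 to -1.48.

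Egfr, the receptor for epidermal growth factor (chromosome 11, 16752203 to 16918158), stood at 49.1, 24.5 and 60.2 CPM at P80 and at 12.5, 9.68, 12.7 and 16.1 CPM at P310. Its log2 change was -1.80 (SE 0.31), and all 4 P310 libraries were below the lowest P80 library. Fkbp5, a co-chaperone of the glucocorticoid receptor and itself a glucocorticoid-induced gene, stood at 72.0, 33.7 and 49.3 CPM against 7.39, 11.9, 26.4 and 17.8 (log2 change -1.70, SE 0.36). Its P310 libraries spread over more than 3-fold, with P310 replicate 3 nearest to the P80 range. Mfsd2a, the lipid transporter of brain endothelial cells that carries docosahexaenoic acid across the blood-brain barrier, stood at 63.7, 68.2 and 73.3 CPM against 37.3, 22.4, 34.2 and 24.2 (log2 change -1.21, SE 0.26). The peptide transporter Slc15a2 and the cytochrome P450 gene Cyp2f2 complete the 6 lower genes, at log2 changes of -1.76 and -3.97. Cyp2f2 varied most at P80, where it stood at 21, 2.47 and 7.65 CPM, and 13.5% of its exon bases are shared with the antisense gene Gm15883.

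Capn5, a calcium-dependent protease (chromosome 7, 98121559 to 98178274), led the genes with the higher mean at P310. It stood at 10.5, 11.5 and 11.5 CPM at P80 and at 33.4, 46.2, 27.4 and 26.5 CPM at P310, with no overlap. The mean was 11.2 ± 0.578 CPM (SD, n = 3) against 33.4 ± 9.08 (SD, n = 4), a log2 change of 1.58 (SE 0.28), or 1.37 without P310 replicate 2. Tnfaip2, a gene induced by tumour necrosis factor, stood at 6.21, 6.18 and 4.66 CPM against 22.3, 26.6, 15 and 20.1 (log2 change 1.89, SE 0.43). Islr2, a membrane protein with leucine-rich repeats, stood at 30.4, 29.6 and 13.5 CPM against 49.2, 47.1, 73.9 and 53.8 (log2 change 1.19, SE 0.27). In both genes the lowest P310 library was clear of the highest P80 library.

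Lypd1, a small membrane-anchored protein that modulates nicotinic receptors, had a log2 change of 1.31 (SE 0.29), and Gpr39, a zinc-sensing receptor, one of 1.38 (SE 0.34). Both lie on opposite strands of chromosome 1, and 39.9% of the exon bases of Gpr39 are also exon bases of Lypd1. The authors counted without strand and counted a read for each gene it overlaps, so these 2 genes share reads. Tspyl4, of a family of nucleosome assembly proteins, had a log2 change of 1.01 (SE 0.25) and shares 37.8% of its exon bases with the antisense gene Gm47512.

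**Figure D2:**
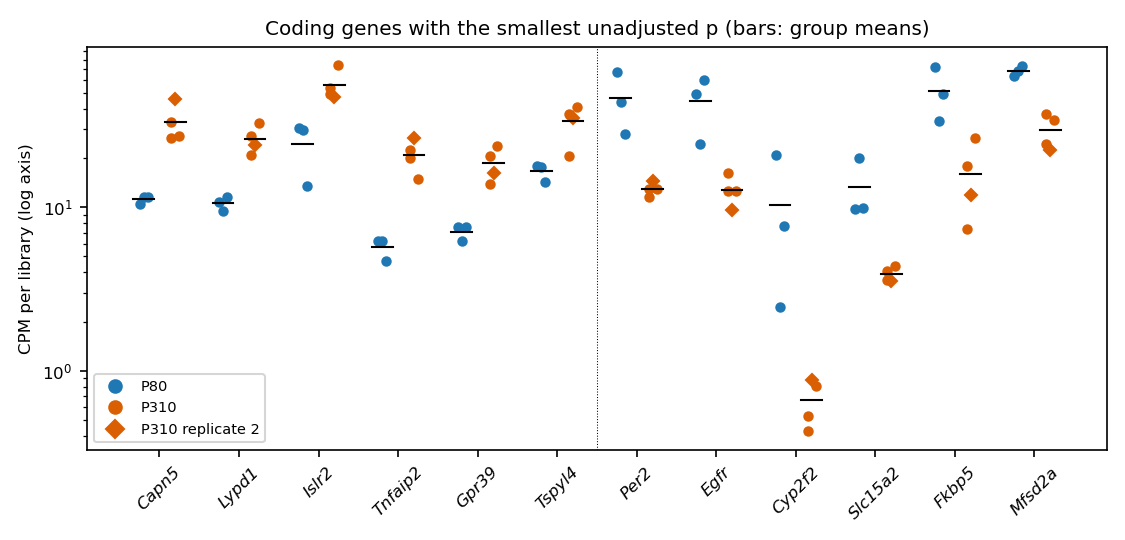
CPM per library on a log axis for the 12 coding genes with the smallest unadjusted p, 6 with the higher mean at P310 (left of the dotted line) and 6 with the lower. Blue points are the 3 P80 libraries, orange points the 4 P310 libraries with replicate 2 as a diamond, and bars are group means. The P310 points, the diamond included, lie all above the P80 points in the 6 genes on the left and all below them in the 6 on the right.

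A p that misses a threshold does not show that a gene is unchanged, so stable genes were defined by their interval. A gene is called stable where the whole 95% interval of its log2 change lies within -1 and 1, which bounds the change to less than 2-fold each way. This held for 6483 genes, or 30.6% of those tested, and for 6196 of 10209 genes of at least 10 CPM (60.7%). Without P310 replicate 2 it held for 6719 genes (32%), 5804 of them among the 6483. In the adult libraries alone it held for 5780 (31.2%), and for 6083 (33.5%) when P310 replicate 2 was also left out. The intervals are not adjusted over genes, and an equivalence test adjusted over all genes bounded 5198. Within the narrower margin of 1.5-fold, 1492 genes were bounded.

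The 12 coding genes of at least 50 CPM whose intervals reached least far from 0 were Taok2, Slk, Ptger1, Rad54l2, Pxn, Ano6, Mbnl2, Atrx, Ncor1, Sorbs2, Rapgef1 and Tcf12. They were chosen for this property, so their values are a description. Taok2, a stress-activated kinase, stood at 228, 216 and 231 CPM at P80 and at 228, 212, 216 and 244 CPM at P310, and its interval ran from -0.34 to 0.34. Slk, a kinase of the cytoskeleton, stood at 156, 160 and 166 CPM against 167, 156, 144 and 173. Mbnl2, a splicing factor, stood at 122, 123 and 126 CPM against 139, 131, 107 and 116, and the chromatin remodeller Atrx at 291, 258 and 295 CPM against 258, 277, 264 and 317. The groups overlapped in each of these 4 genes. All 12 were also stable without P310 replicate 2 and in the adult libraries alone, and the widest of their intervals reached 1.29-fold.

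Genes commonly used as references were mostly stable, 13 of 18 with all libraries and 16 of 18 without P310 replicate 2. Actb, cytoskeletal actin, stood at 1020, 964 and 996 CPM at P80 and at 975, 745, 1294 and 865 CPM at P310 (interval -0.50 to 0.43). Sdha, a subunit of succinate dehydrogenase, stood at 119, 110 and 117 CPM against 106, 146, 130 and 118 (interval -0.25 to 0.48). Rpl13a, a ribosomal protein gene, was not stable with all libraries, as P310 replicate 2 held 1291 CPM where the other 6 held 272 to 353. Its log2 change was 0.80 with that library and -0.08 without it, and 29.4% of its exon bases are shared with Gm45713. Eef1a1, an elongation factor, had an interval of -0.01 to 1.14 and became stable without that library.

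Of the 20 OPC identity genes 3 were stable with all libraries and 2 without P310 replicate 2, and the median log2 change was 0.04 and -0.35, beside 0.03 and -0.01 over all genes tested. Pdgfra, on which the cells were sorted, stood at 40.8, 17.2 and 53.4 CPM at P80 and at 68.8, 15.8, 13.7 and 24.6 CPM at P310. The groups overlapped, with P310 replicate 1 the highest of all 7, and the log2 change was -0.28 (SE 0.55, interval -1.48 to 0.92). Cspg4 stood at 59.1, 80.8 and 116 CPM against 82.7, 70.3, 60.5 and 54.7, with an interval of -0.96 to 0.27. It was stable with all libraries and missed that bound without P310 replicate 2, where the interval was -1.03 to 0.28.

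The means of 3 transcription factors of the lineage turned on P310 replicate 2. Olig2 stood at 5.19, 7.04 and 1.18 CPM at P80 and at 0.132, 12.5, 2.41 and 0.595 CPM at P310. Its log2 change was -0.18 with all libraries and -2.04 without P310 replicate 2 (interval -3.76 to -0.33, adjusted p = 0.883). Sox10 stood at 4.56, 6.92 and 5.42 CPM against 9.90, 58.1, 1.52 and 1.02, a log2 change of 1.65, or -0.48 without that library. Olig1, singled out after its values were seen, turned in the same way, from 1.43 to -1.45 (adjusted p = 0.857 without it), and stood at 63.5 CPM in P310 replicate 2 against 0.924 to 9.39 CPM in the other 6. P310 replicate 2 was the highest of the 7 libraries for all 3 genes.

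An unadjusted p under 0.05 was found for 1 OPC gene with the higher mean at P310 and 2 with the lower, beside 2.93% and 2.56% of all genes. Sox6, a factor that keeps precursors immature, had the higher mean at P310 (log2 change 0.66, SE 0.24), with 15.3 to 19.2 CPM against 9.04 to 14.4 CPM and no overlap. Ptprz1, a receptor phosphatase, and Bcan, the matrix proteoglycan brevican, had the lower means (log2 changes of -0.85 and -0.81). Bcan stood at 138, 239 and 127 CPM against 115, 111, 92.5 and 65.8, and its groups did not overlap. The stable members were Cspg4, Sox5, with an interval of -0.74 to 0.50, and Gpr17, with one of -0.67 to 0.85.

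None of the 26 genes of mature oligodendrocytes and myelin was stable with or without P310 replicate 2. Of the 26, 24 had the higher mean at P310, and the median log2 change was 3.34 with that library and 0.49 without it. Their summed level was 1422, 1042 and 917 CPM at P80 and 1953, 69437, 976 and 1061 CPM at P310, so 1 library of 4 was far above the rest and P310 replicate 1 slightly above. Mbp, myelin basic protein, stood at 74.2, 130 and 41.9 CPM against 319, 39223, 65.4 and 61.4. Its log2 change was 6.92 (interval 0.60 to 13.24), and 0.85 (interval -1.53 to 3.22) without P310 replicate 2.

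An unadjusted p under 0.05 with the higher mean at P310 was found for 9 of the 26 genes (34.6%) with all libraries, beside 2.93% of all genes. The 3 with the smallest p, Opalin, Hapln2 and Gjb1, were each under 1 CPM in the P80 libraries and had 15, 33.7 and 10.9 CPM in P310 replicate 2. Without that library Opalin and Gjb1 did not pass the low-count filter and were not tested. Among the members still tested without it, the smallest unadjusted p in the edgeR test was 0.110, so the 34.6% rests on that library. In 3 members, Mag, Tspan2 and Pllp, named after their values were seen, every P310 library was above every P80 library, beside 2.27% of all genes. Pllp shares 54.2% of its exon bases with the antisense gene Gm45767, which had more counts, so its reads cannot be told apart from that gene's. Mag, an adhesion protein of the inner myelin layer, stood at 1.96, 0.370 and 2.64 CPM against 11.7, 112, 4.99 and 2.72. Its log2 change of 1.87 without P310 replicate 2 had an interval of -0.66 to 4.40.

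Genes of committed precursors, the step between OPC and oligodendrocyte, were stable in 6 of 14 cases, among them Fyn and Epb41l2. Their sum was 717 to 791 CPM in 6 libraries and 8492 CPM in P310 replicate 2, of which Bcas1, a gene of early myelinating cells, made up 7727 CPM. The genes of at least 50 CPM with the widest intervals were Mbp, Mobp, Bcas1, Bcas1os1, Kif5a and a gene model, Gm38642, which shares exon bases with Mobp. In Kif5a, a kinesin motor of axons, P310 replicate 1 also stood out, with 930 CPM against 39.6 to 125 CPM in the 5 libraries other than P310 replicates 1 and 2. The part of myelin carried over or of oligodendrocytes in the sort in these values was not tested.

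**Figure D3:**
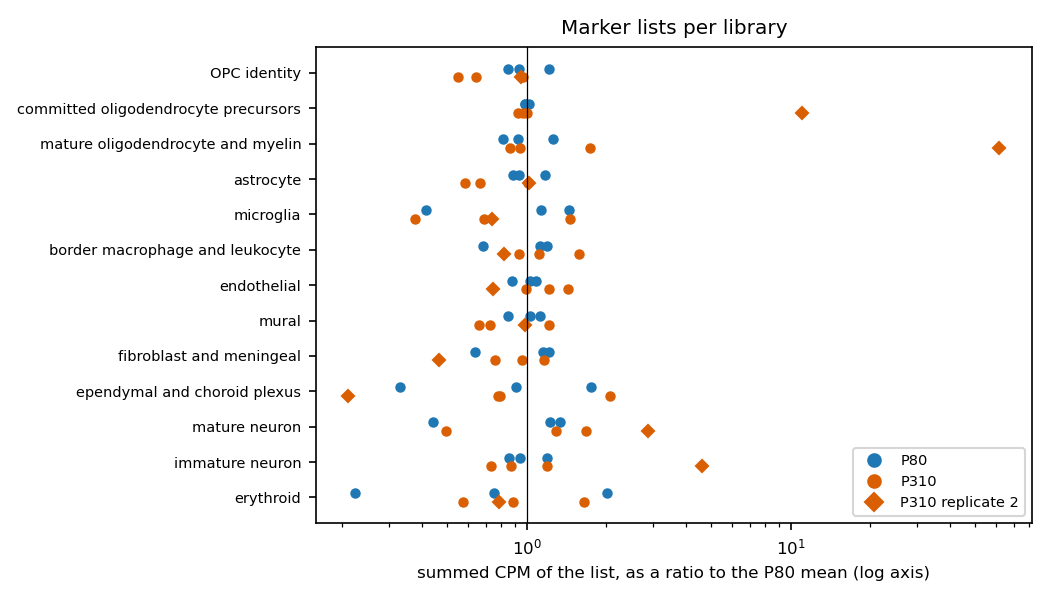
Summed CPM of each marker list per adult library, as a ratio to the mean of the P80 libraries on a log axis, for 13 cell type lists. Blue points are P80, orange points P310, and the diamond is P310 replicate 2. The diamond lies far to the right for mature oligodendrocyte and committed precursor genes and below the P80 mean for endothelial genes. It lies near that mean for OPC identity genes and for astrocyte genes, where the sum includes S100b.

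Endothelial genes had the highest share of stable members of the 34 lists with all libraries, though not without P310 replicate 2, where reference genes had it. Of 16 members 15 were stable with all libraries and 13 without P310 replicate 2, beside 30.6% and 32% of all genes tested and 60.7% of those of at least 10 CPM, as all 16 were. None had an unadjusted p under 0.05, and the median log2 change was 0.07 and 0.22. Kdr, the main receptor for vascular endothelial growth factor, stood at 310, 320 and 322 CPM at P80 and at 359, 223, 326 and 290 CPM at P310, with an interval of -0.58 to 0.41. Esam, an adhesion molecule of endothelial junctions, had an interval of -0.57 to 0.32. Cldn5 stood at 475, 442 and 372 CPM against 464, 346, 851 and 473, and P310 replicate 3 was the highest. The exception was Vwf, the clotting factor stored by endothelial cells, which stood at 1555, 1381 and 1077 CPM against 1276, 1332, 2413 and 2317 (log2 change 0.46, interval -0.21 to 1.12). P310 replicates 3 and 4 lay above all P80 libraries for Vwf, and the other 2 among them. P310 replicate 2 had the lowest summed endothelial level, 6977 CPM where the others had 8255 to 13421 CPM.

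Genes of mural cells, the contractile cells around vessels, were stable in 6 of 13 cases, among them Myh11 and Acta2, which encode smooth muscle myosin and actin. Anpep, a pericyte peptidase, had the lower mean, 94.5, 35.4 and 88.7 CPM against 29.3, 23.1, 33.8 and 46.2 (log2 change -1.14, SE 0.35), and its groups overlapped through P80 replicate 2. Of 14 fibroblast and meningeal genes 2 (14.3%) were stable, Foxc1 and Col3a1, beside 30.6% of all genes, and 3 (21.4%) had an unadjusted p under 0.05 with the lower mean at P310, beside 2.56%. Crabp2, a carrier of retinoic acid, stood at 15.1, 6.18 and 16.1 CPM against 0.792, 3.08, 3.74 and 6.12, with no overlap. Slc47a1, an organic cation exporter, and Ogn, a matrix proteoglycan, overlapped between the ages, with P80 replicate 2 lower than the other P80 libraries in both. Without P310 replicate 2 the unadjusted p in the edgeR test was 0.012 for Crabp2, 0.060 for Slc47a1 and 0.061 for Ogn. The median log2 change of the list was -0.23, and -0.01 without that library. The summed level of this list overlapped between the ages, at 952, 529 and 1004 CPM against 961, 386, 626 and 795, and its part in the results for single genes was not tested.

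Astrocyte genes had lower means at P310 in 13 of 16 cases, and 5 of 16 (31.2%) had an unadjusted p under 0.05 in that direction, beside 2.56% of all genes. The median log2 change was -0.51, and -0.44 without P310 replicate 2. Gja1, a connexin of astrocyte gap junctions, stood at 185, 129 and 186 CPM at P80 and at 70.9, 28.7, 107 and 97.3 CPM at P310. Its groups did not overlap, and the log2 change was -1.13 (SE 0.34), or -0.86 without P310 replicate 2. Slc4a4, a bicarbonate transporter, stood at 147, 153 and 153 CPM against 110, 82.7, 64.4 and 66.9 (log2 change -0.90, SE 0.28), also with no overlap. Mlc1, a membrane protein of astrocyte endfeet, Gjb6, a second connexin, and the glutamate transporter Slc1a3 had log2 changes of -0.86, -1.35 and -0.72, and their groups overlapped.

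Other astrocyte genes were bounded or moved with P310 replicate 2. Gfap, the filament protein of astrocytes, stood at 183, 82.0 and 122 CPM against 160, 113, 157 and 81.6, with an interval of -0.94 to 0.91. Glul, glutamine synthetase, and Fgfr3, a growth factor receptor, were stable with and without that library. S100b, also made by oligodendrocytes, stood at 530 CPM in P310 replicate 2 and at 7.39 to 24.5 CPM in the other 6. The summed astrocyte level was 3174, 3985 and 3015 CPM against 3438, 3448, 2250 and 1976. P310 replicates 1 and 2 lay within the P80 range and replicates 3 and 4 below it. For P310 replicate 2 the sum includes its 530 CPM of S100b. Per kilobase of exon, the median astrocyte marker stood at 17.9, 17.1 and 16.5 CPM against 14.8, 9.71, 11.5 and 9.03. By that measure every P310 library was below every P80 library.

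Microglial genes, of the brain's resident macrophages, spread widely within each age, with sums of 508 to 1779 CPM at P80 and 465 to 1793 CPM at P310. Only Siglech of 18 was stable with all libraries, none was without P310 replicate 2, and none had an unadjusted p under 0.05. P2ry12, a receptor by which resting microglia sense nucleotides, stood at 16.6, 63.0 and 64.4 CPM at P80 and at 50.2, 19.2, 34.1 and 13.1 CPM at P310. Genes of mature neurons were stable in 0 of 16 cases, and their median log2 change of 0.61 was 0.07 without P310 replicate 2. Stmn2, a microtubule regulator of axons, stood at 43.3, 54.5 and 31.2 CPM against 46.1, 75.2, 96.9 and 69.4 (log2 change 0.75, SE 0.33). Slc17a6, a vesicular glutamate transporter, had the smallest p of the list and the lower mean (log2 change -2.87, SE 1.04), at 0.443, 0.247 and 2.78 CPM against 0.396, 0.330, 0 and 0, with overlap. Nefh, the heavy neurofilament, was highest in P310 replicate 2, at 43.7 CPM against 2.72 to 16.6.

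The other marker lists held smaller shares of stable genes than the 30.6% of all genes tested, but that share follows level. A mean of at least 10 CPM was reached by 10 ependymal and choroid plexus, 6 erythroid, 3 immature neuron and 5 border macrophage and leukocyte genes. Of these 0, 0, 0 and 1 were stable, beside 60.7% of all genes at that level. None of 15 ependymal and choroid plexus genes and none of 10 erythroid genes was stable, and 1 of 18 immature neuron genes and 1 of 13 genes of border macrophages and leukocytes was. Ependymal and choroid plexus genes summed to between 661 and 6483 CPM over the 7 libraries and erythroid genes to between 262 and 2375 CPM, and the ages overlapped in both. The T cell gene Cd3e, named after its values were seen, stood at 0.190, 2.59 and 2.64 CPM at P80 and had 1 count in the 4 P310 libraries together.

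Genes of the circadian clock, the transcriptional loop that sets daily rhythms in most cells, had lower means at P310 in 13 of 16 cases. Of the 16, 6 (37.5%) had an unadjusted p under 0.05 in that direction, beside 2.56% of all genes, and in 5 every P310 library was below every P80 library, beside 2.59%. The median log2 change was -0.50, and -0.59 without P310 replicate 2. Besides Per2, these were Dbp, Per3, Tef, Nr1d2 and Per1, the last 3 named after their values were seen. Dbp, an output factor of the clock, stood at 125, 70.4 and 70.9 CPM against 52.4, 56.6, 27.9 and 23.3 (log2 change -1.15, SE 0.32), and 18.0% of its exon bases are shared with Sphk2 on the other strand. Per3 stood at 90.4, 79.9 and 64.8 CPM against 43.4, 40.8, 28.9 and 57.7 (log2 change -0.88, SE 0.26). In both genes all P310 libraries were below all P80 libraries.

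Of the 16 clock genes 5 were stable. The activator Clock was 1 of them, at 79.6, 61.6 and 81.6 CPM against 86.8, 76.8, 58.8 and 83.3 (interval -0.43 to 0.51). The repressor Cry2 was also stable, with an interval of -0.74 to 0.21. Per1, induced at once by many signals, stood at 140, 182 and 154 CPM against 41.0, 59.4, 62.2 and 154, so P310 replicate 4 lay within the P80 range and the other 3 below it. The hour at which the tissue was collected is not given in the sources used here, and its part in these values was not tested.

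Heat shock chaperones, which fold proteins and rise when proteins are damaged, had the lower mean at P310 in 11 of 12 cases. Of the 12, 4 (33.3%) had an unadjusted p under 0.05 in that direction, beside 2.56% of all genes. In 5 every P310 library was below every P80 library, beside 2.59%, and the median log2 change was -0.57 with and -0.58 without P310 replicate 2. Hspa8, the constitutive Hsp70, stood at 542, 695 and 562 CPM at P80 and at 258, 299, 447 and 350 CPM at P310 (log2 change -0.82, SE 0.23). The co-chaperone Dnajb1 stood at 31.4, 40.9 and 46.0 CPM against 17.0, 16.8, 31.0 and 29.4, and the mitochondrial chaperonin Hspd1 at 40.5, 63.5 and 46.2 CPM against 28.2, 37.2, 38.6 and 26.8. Every P310 library was below every P80 library in these 3, and likewise in Hsph1 and Hsp90aa1, named after their values were seen. Hsp90ab1, the constitutive Hsp90, and Bag3, a partner of Hsp70, were stable, with intervals of -0.49 to 0.58 and -0.75 to 0.47.

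Immediate early genes, transcribed within minutes of a stimulus, were stable in 9 of 22 cases, and in 13 without P310 replicate 2. Of the 22, 4 (18.2%) had an unadjusted p under 0.05 with the lower mean at P310, beside 2.56% of all genes, and the median log2 change was -0.30, or -0.15 without that library. Atf3, a stress-induced factor, stood at 40.0, 51.4 and 38.2 CPM against 12.8, 8.36, 15.2 and 23.0 (log2 change -1.54, SE 0.41), with no overlap. Fos stood at 182, 95.8 and 139 CPM against 40.5, 50.4, 114 and 92.1, and its groups overlapped. Jund shares 52.6% of its exon bases with Gm11175 on the other strand. Ier2 and Ier5 were stable, with intervals of -0.58 to 0.71 and -0.66 to 0.36. The share of mitochondrial counts, which was highest in P310 replicates 1 and 2, moved with the lowest Fos levels, and its part in them was not tested.

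**Figure D4:**
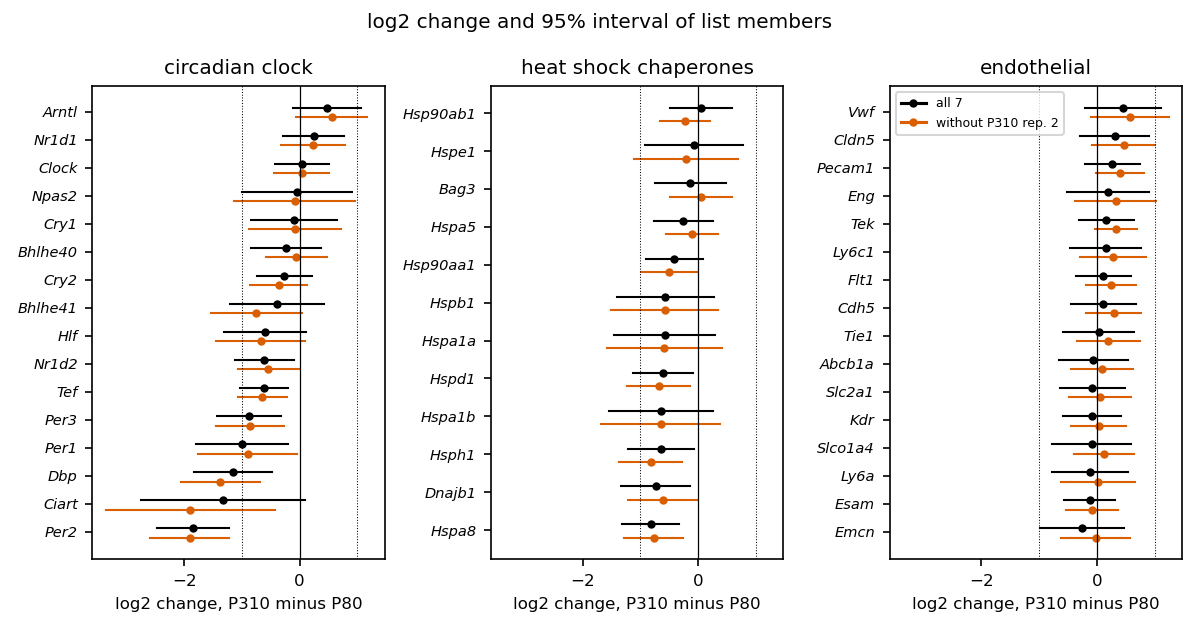
log2 change from P80 to P310 with its 95% interval for the members of the circadian clock, heat shock chaperone and endothelial lists, with all 7 adult libraries (black) and without P310 replicate 2 (orange). Dotted lines mark 2-fold. Endothelial intervals stay within or near the dotted lines around 0, while 13 of 16 clock genes and 11 of 12 chaperones have black points left of 0.

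In 3 signalling pathways known in glia and vessels the genes of at least 10 CPM were stable in 11 of 20 (Wnt), 8 of 17 (Notch) and 10 of 16 (BMP) cases, near or below the 60.7% of all genes at that level. In the Wnt pathway, which acts on OPC maturation and on the blood-brain barrier, 11 of 24 genes were stable, among them beta-catenin (Ctnnb1, interval -0.32 to 0.45) and the co-receptor Lrp5 (interval -0.49 to 0.33). Of the 24, 6 (25%) had an unadjusted p under 0.05 with the lower mean at P310, beside 2.56% of all genes. The ligand Wnt7a stood at 2.15, 3.83 and 2.36 CPM against 0.396, 1.1, 1.34 and 0.170 (log2 change -1.86, SE 0.60), and the receptor Fzd4 at 129, 132 and 139 CPM against 60.3, 59.3, 90.04 and 115 (log2 change -0.71, SE 0.25). Neither overlapped between the ages. Nkd1, a feedback inhibitor, had a log2 change of -0.61, or -0.81 without P310 replicate 2.

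Of 18 Notch pathway genes 8 were stable, among them Notch1 (interval -0.49 to 0.43) and Numb. The ligand Jag2 stood at 241 to 281 CPM against 291 to 461 CPM, with no overlap and a log2 change of 0.55 (SE 0.20). Its interval of 0.11 to 0.99 lay within 2-fold and above 0, but without P310 replicate 2 the log2 change was 0.63 (interval 0.20 to 1.06), past the bound. The glycosyltransferase Lfng, which tunes Notch to its ligands, had the lower mean (log2 change -0.70, SE 0.26). Of 18 BMP pathway genes 10 were stable, among them Id2 and Smad5, and the receptor Bmpr1b had a log2 change of -1.30 (SE 0.55) from 8.43, 14.6 and 3.62 CPM to 1.98, 1.65, 6.95 and 3.65 CPM, with overlap.

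Extracellular matrix genes were stable in 11 of 20 cases, and in 14 without P310 replicate 2. The basement membrane genes Lama4 and Hspg2 had intervals of -0.47 to 0.41 and -0.28 to 0.55. Sparc, a matrix-binding glycoprotein, stood at 391, 389 and 401 CPM against 339, 194, 325 and 210 (log2 change -0.56, SE 0.22), with no overlap. Col18a1, of vascular basement membranes, had the higher mean (log2 change 0.68, SE 0.24), at 130, 105 and 94.2 CPM against 125, 155, 233 and 189. Col6a2 stood at 199, 42.6 and 209 CPM against 65.7, 42.8, 86.8 and 72.4, where P80 replicate 2 lay at the P310 minimum. P80 replicate 2 was also the lowest P80 library for the fibroblast genes Crabp2, Slc47a1 and Ogn.

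Interferon response and MHC class I genes, which present antigen and defend against viruses, were stable in 17 of 26 cases (65.4%). Without P310 replicate 2 the count was 15. Of the 26 genes 25 reached 10 CPM, a level at which 60.7% of all genes were stable, so the list was near its background. Irf9, a factor that carries the interferon signal, had an interval of -0.42 to 0.49. H2-K1, a class I heavy chain, stood at 233, 218 and 187 CPM at P80 and at 253, 330, 366 and 271 CPM at P310. All P310 libraries were above all P80 libraries, and the log2 change was 0.52 (SE 0.20), with an interval of 0.10 to 0.94. H2-D1, which like H2-K1 belongs to a family of near-identical copies whose reads can be shared, had a log2 change of 0.37 (interval -0.04 to 0.78). Genes of complement and reactive glia were stable in 8 of 17 cases and cytokines and chemokines in 7 of 21, and MHC class II genes in 0 of 8.

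Of 24 genes of cholesterol synthesis, a pathway myelin-forming cells depend on, 9 were stable, among them the master regulator Srebf2 (interval -0.27 to 0.41) and the sterol carrier Stard4. Sqle, squalene epoxidase, stood at 22.7, 24.6 and 19.8 CPM against 5.54, 6.82, 14.0 and 11.2 (log2 change -1.24, SE 0.32), with no overlap. The median of the list was -0.02.

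The 13 protein genes of the mitochondrial genome all had the higher mean at P310, at log2 changes of 0.60 to 0.91, and none was stable or had an unadjusted p under 0.05. Such genes are transcribed together, so they do not count as 13 separate results. mt-Co1, a subunit of cytochrome oxidase, stood at 5616, 14729 and 11158 CPM against 25032, 25278, 9493 and 13166, with P310 replicates 1 and 2 above the others and replicates 3 and 4 within the P80 range. The median log2 change was 0.72, and 0.52 without P310 replicate 2. Of 20 nuclear genes of the respiratory chain 10 were stable.

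Genes of DNA methylation and Polycomb silencing were stable in 10 of 16 cases, and in 12 without P310 replicate 2, among them the demethylase Tet3. Dnmt1, the maintenance methyltransferase, had an interval of -0.83 to 0.05. Ezh2, the Polycomb methyltransferase, stood at 37.2 CPM in P310 replicate 2 against 4.94 to 10.7 in the others, and its log2 change of 1.17 was 0.32 without that library. Cell cycle genes were stable in 8 of 36 cases and cell cycle inhibitors and genes of senescence in 3 of 12. Of the 36 cell cycle genes, 4 (11.1%) had an unadjusted p under 0.05 with the higher mean at P310, beside 2.93% of all genes. Most of these 4 had means under 1 CPM at both ages. With the lower mean it was 1 (2.78%), beside 2.56%. Mki67, a marker of dividing cells, stood at 6.53, 6.05 and 5.08 CPM against 0.396, 1.87, 6.42 and 25.8. The P310 libraries covered both sides of the P80 range, and the log2 change was 0.57 (SE 0.92, interval -1.50 to 2.65).

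Channels and receptors, by which OPCs receive synaptic input, were mostly not bounded. Of 16 sodium and calcium channel genes and 27 glutamate and GABA receptor genes none was stable, and of 18 potassium channel genes 2 were. The median log2 changes of these lists, 0.18, 0.22 and 0.02, turned to -0.44, -0.41 and -0.43 without P310 replicate 2. Over all 34 lists, 179 of 601 genes tested were stable, or 29.8%, beside 30.6% of all genes. The share of stable genes follows level, and the lists were not matched to all genes by level. These shares therefore do not show that list genes were as bounded as other genes of their level.

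The spread between libraries set these limits. The biological coefficient of variation, the spread of a gene between libraries beyond counting error, was 0.312 within P80 and 0.409 within P310, over genes of at least 10 CPM. Leaving out P310 replicate 2 lowered the latter to 0.307, and leaving out any other P310 library gave 0.414 to 0.447. The root mean square log2 difference over 9576 coding genes was 0.582 to 0.740 between P80 libraries, 0.482 to 1.07 between P310 libraries and 0.447 to 1.08 across ages. Without P310 replicate 2 these upper ends were 0.768 and 0.758, and the pair of libraries nearest to each other was still 1 of each age.

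Unless stated, the limits come from the fit of all 4 ages, whose estimate of spread also draws on the younger libraries. There the median gene of 10 to 100 CPM needed a 1.58-fold change for an unadjusted p of 0.05. At 0.05 divided by the genes tested it needed a 4.99-fold change. Over 100 CPM these folds were 1.39 and 3.14, at 1 to 10 CPM 2.83 and 38.3, and under 1 CPM 8.79 and 2090. The share of stable genes followed the level, with 76.9% over 100 CPM, 58.1% at 10 to 100 CPM, 3.65% at 1 to 10 CPM and 0.033% under 1 CPM. Per2 and Egfr, lower by 3.59-fold and 3.49-fold at P310, lay under the stricter limit of the median gene at 10 to 100 CPM. With the adult libraries alone, which use only their own spread, the limits at 10 to 100 CPM were 1.65-fold and 7.79-fold.

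**Figure D5:**
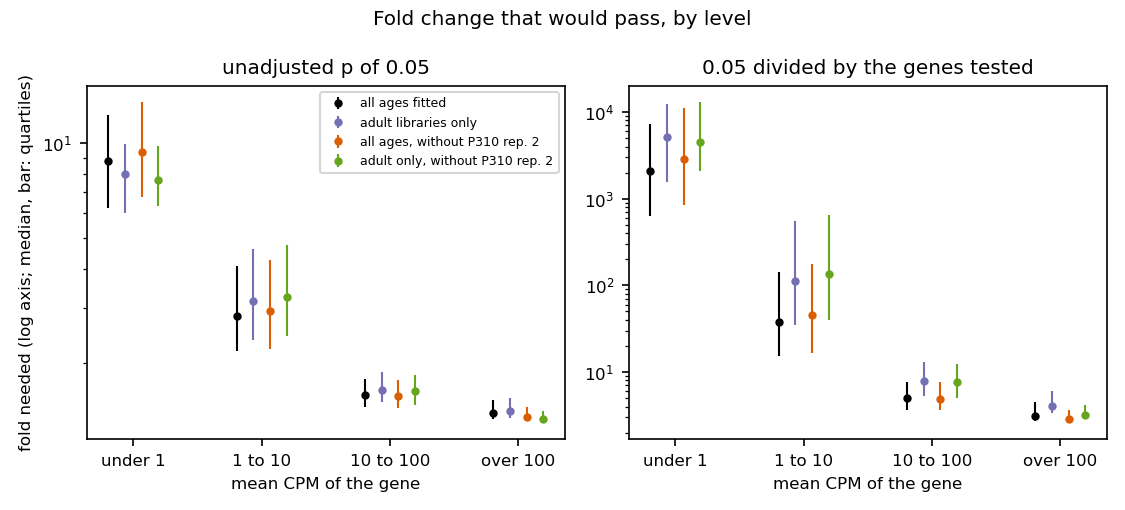
Fold change that would pass, on a log axis, by mean CPM of the gene, at an unadjusted p of 0.05 (left) and at 0.05 divided by the genes tested (right). Points are medians over genes and bars quartiles, for the fit of all ages, the adult libraries only, and each without P310 replicate 2. At 10 to 100 CPM the medians of the fit of all ages are 1.58 and 4.99, and limits fall as the level rises.

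Some genes were seen at 1 age only. No count at either adult age was found for 10833 genes, 1819 had counts at P310 only and 1405 at P80 only. Most of these had few counts, as 131 and 64 of them had over 20 counts at the other age, and 21 and 33 had counts in every library of it. The 4 with the most counts were set by 1 library each. Galnt5 had 216 of its 217 counts in P310 replicate 2, and it shares 237 exon bases with the myelin gene Ermn on the other strand, whose reads cannot be told apart from its own there. RF01953, a stretch of the noncoding RNA Sox2ot, had 152 of 168 counts in the same library. All 166 counts of Gm11505, antisense to Mpo, and all 94 of the eosinophil granule gene Prg2 were in P310 replicate 4. A count of 0 over the P80 group is compatible with up to 0.0784 CPM and over the P310 group with up to 0.0757 CPM.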

How the data were processed

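Gene counts were deposited 1 table per library. Per the file headers they are featureCounts 1.5.0-p1 counts over exons of Ensembl release 92 (GRCm38), with reads assigned to every overlapping gene, multimapping reads kept, 10 bases as the least overlap and strand ignored. The submitters' processing notes name Trim Galore and TopHat2 2.1.1. Symbols came from GENCODE M21, which named 37715 of 37785 genes.

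The counts were tested with edgeR 4.0.16 (R 4.3.3) by its robust quasi-likelihood test after filterByExpr and TMM, with a mean per age over 12 samples. These were all 4 ages, with P12 replicates 2 and 3 summed, and the contrast was P310 minus P80. p-values were adjusted over all genes tested (Benjamini-Hochberg, threshold 0.05). The SE is the absolute log2 change divided by the square root of F. The script was tested on simulated data. Alternatives were other samples, scalings, filters, margins, limma 3.58.1 with voom, DESeq2 1.42.0 and a replicate block. Same-numbered P80 and P310 libraries deviated together with correlations of -0.13, 0.16 and -0.00, so they were not treated as pairs.

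Named genes were 6 fixed genes, up to 6 coding genes of at least 10 CPM per direction by smallest p, up to 12 stable and 6 least bounded genes of at least 50 CPM, the genes at 0 in 1 group with the most counts, and per list up to 3 by smallest p and 2 stable. The comparison, the 34 lists and the genes were chosen with earlier results of these data known, and 17 more genes after their values were seen. Some genes that these rules select are not reported here.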

Additional observations from a re-analysis of the deposited data

Results flagged for a closer look

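In 28 of 190 quantities checked (14.7%), 1 of the 4 P310 libraries lay far from the other 3, by the gap to its nearest neighbour as a share of the group's range. For normally distributed values chance gives this for about 1 in 20 groups, and genes of one cell type are not independent of each other. Some genes checked were chosen for wide intervals or for counts in 1 group only, a choice that favours such a gap. P310 replicate 2 was the high library for myelin and oligodendrocyte genes, with a share of 0.993 for Mbp, 0.995 for Mobp, 0.994 for Bcas1, 0.993 for Bcas1os1, 0.997 for Gm38642, 0.917 for Mag, 0.964 for Opalin, 0.960 for Hapln2, 0.927 for Gjb1 and 0.839 for Tspan2. It was also the high library for Sox10 (0.844), Olig1 (0.958), Fyn (0.939), S100b (0.967), Kif5a (0.952), Ezh2 (0.871), Rpl13a (0.928), Galnt5 (0.996) and RF01953 (0.926). The summed levels of mature oligodendrocyte genes (0.986), committed precursor genes (0.993) and immature neuron genes (0.880) were highest in the same library. Cd3e (1) had its single P310 count there.

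Other libraries stood apart in few genes. P310 replicate 4 held all P310 counts of Gm11505 (1) and Prg2 (1). P310 replicate 1 was high for the smooth muscle gene Cnn1 (0.852), and P310 replicate 3 was low for Rad54l2 (0.897), whose 4 values lay between 50.6 and 59.1 CPM.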

How the results depend on the processing

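The call count of 0 became 423 with no low-count filter, 28 with DESeq2, 29 with DESeq2 and without P310 replicate 2 (chosen after seeing the data), and 1 (H19) without P310 replicate 4. Of the 423 genes, 257 (60.8%) were highest in P310 replicate 2. The fit with no low-count filter had 239840 degrees of freedom per gene, against 7.51 to 14.5 in the main fit. It thus took almost no account of each gene's own spread, so its 423 calls are not comparable with the 0 of the main fit. Its smallest adjusted p was that of Mobp, with 221960 counts in P310 replicate 2 and 257 to 1171 in the other adult libraries. The 6483 stable genes became 1492 within 1.5-fold, and leaving out 1 adult library gave 4713 to 6719 stable genes and 0 to 1 calls. With the adult libraries alone the fold needed at the stricter limit at 10 to 100 CPM was 7.79, and over 100 CPM, also without P310 replicate 2, the unadjusted limit was 1.33. The spread of 0.312 within P80 ran from 0.276 to 0.346 and that of 0.409 within P310 from 0.307 to 0.447 when 1 library was left out.

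The replicate block, which pairs libraries by number only, gave 0 calls and 5225 stable genes, and 0 and 4080 with the adult libraries alone. It turned the log2 change of Mki67 to -1.12 (-1.57 with adults alone), of Gm11505 to -0.26 and of Prg2 to -0.14, and with adults alone of Olig1 to -0.022.

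Of 2837 log2 changes under alternatives 182 took the other sign, in 50 genes. Of these, 157 were of genes bounded within 2-fold in both fits, and the other 25 were in 11 genes. With the adult libraries alone and without P310 replicate 2 the values were -0.46 for Sox10, -1.47 for Olig1, -0.080 for Rpl13a and -0.045 for S100b. With voom Sox10 was -1.14 and Olig1 -0.59. Leaving out 1 library at a time gave -1.04 to 0.058 for Pdgfra, -2.04 to 0.29 for Olig2, -0.48 to 2.04 for Sox10, -0.97 to 0.96 for Mki67, -0.080 to 1.02 for Rpl13a, -0.25 to 0.33 for Gfap, -1.45 to 1.82 for Olig1, -0.050 to 3.62 for S100b and -0.33 to 0.33 for Siglech. The low end for Olig2, Sox10, Rpl13a, Olig1 and S100b was without P310 replicate 2, and that of Mki67 without P310 replicate 4. The cause of these differences was not tested beyond the samples left out. Of genes under 1 CPM 0.033% could be bounded.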
